A study of Mus musculus with 12 samples.

Results

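The levels of 10 genes of the molecular circadian clock were followed in RNA from purified mouse myelin: Arntl (the gene of BMAL1), Clock, Per1, Per2, Per3, Cry1, Nr1d1, Nr1d2, Dbp and Tef. They were chosen by symbol, and 10 of 10 were found among the 21937 genes of the table and passed the filter on low values. Myelin, the lipid-rich membrane that oligodendrocytes wrap around axons, was enriched on sucrose gradients from brains of male c57Bl6/N mice, wild type (WT) in the labels. There were 12 libraries, 3 each from mice aged P18, P75, 6 months and 24 months. The labels name no treatment, and age was the only difference they give between the groups. The fraction is not a sorted cell type, and neither the hour of collection nor the light cycle is given in the sources used here.

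The clock is a feedback loop of transcription. BMAL1 and CLOCK form the positive arm, a dimer that binds E-box motifs and activates Per and Cry genes, Nr1d1, Nr1d2, Dbp and Tef. PER and CRY proteins then inhibit the dimer, while the nuclear receptors REV-ERB alpha and beta, products of Nr1d1 and Nr1d2, repress Arntl through ROR elements. DBP and TEF are PAR bZIP factors that carry the rhythm to output genes through D-boxes. In tissues with a running clock, the mRNAs of Dbp and Nr1d1 peak at a time of day far from the peak of Arntl, so that the level of the arms against each other depends on the hour at which a tissue is taken.

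The motifs through which the loop is wired were looked for in the promoters, as sequence context for the genes that were measured. RefSeq windows of GRCm38.p6 that run from 250 bases before to 50 bases after a start were found for 9 of the 10 genes, in 14 windows, and Per2 had none. An E-box (CACGTG, read on both strands) was in the windows of 3 genes, Cry1, Per1 and Tef, against 7.15% of all 32851 windows and 8.09% of all 27025 genes. The variant CACGTT (on the other strand AACGTG) was in those of Cry1 and Nr1d1, against 4.68% of windows and 5.44% of genes. The D-box TTANGTAA was in that of Per3, with 2 matches, against 2.32% of windows and 2.72% of genes. These sequences, except the variant in Cry1, are printed 5′ to 3′ on the strand of the gene, with the motif in capitals. They show the elements by which the positive arm and the PAR bZIP factors could reach these genes.
Per1, chr11:69098766-69098805, plus strand: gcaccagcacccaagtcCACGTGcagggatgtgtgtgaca
Cry1, chr10:85185092-85185131, minus strand: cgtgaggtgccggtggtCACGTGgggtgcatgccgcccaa
Tef, first of 2 starts, chr15:81802529-81802568, plus strand: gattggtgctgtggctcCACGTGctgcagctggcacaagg
Tef, the other start, chr15:81811259-81811298, plus strand: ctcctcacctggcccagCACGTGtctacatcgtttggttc
Nr1d1, chr11:98775383-98775422, minus strand: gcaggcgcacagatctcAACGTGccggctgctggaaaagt
Per3, chr4:151044846-151044887, minus strand: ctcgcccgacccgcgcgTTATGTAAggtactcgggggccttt
Per3, chr4:151044799-151044840, minus strand: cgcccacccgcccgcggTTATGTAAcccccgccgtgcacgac
The E-box of Cry1 lay 60 bases before its start and that of Per1 166 bases before. The ROR element TAGGTCA was in the window of Arntl, 31 bases after the start, against 2.61% of windows and 2.97% of genes. The cAMP response element TGACGTCA was in the windows of 0 of 9 genes, against 1.79% of all windows and 2.03% of all genes. A match is a description of letters in a window and not a measured site.

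Values are normalized read counts, that is, reads on a gene divided by the size factor of the library. The libraries held 20299052 to 27214385 reads on genes, and a member rested on 369 reads (Dbp at 24 months) to 6144 reads (Tef at 6 months) in a single library. Replicate 3 at P18 and, in clock genes, replicate 1 at 24 months stood apart from their companions, and results that rest on them are given with and without them. The summed level of 11 myelin and oligodendrocyte markers lay between 200589 and 639305 in the 12 libraries. Per kilobase of merged exons, the highest mean level over the libraries was that of Nr1d1 (915), followed by Tef (631), Nr1d2 (527), Per1 (253), Cry1 (239), Arntl (231), Dbp (181), Per2 (138), Clock (92.7) and Per3 (63.7). The libraries of neighbours in this order overlapped except between Nr1d1 (712 to 1263) and Tef (543 to 699), and between Nr1d2 (368 to 641) and Per1 (205 to 302). The repressors of Arntl and Tef were thus the 3 most abundant members per kilobase in every library.

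Changes were tested between consecutive ages, and between P75 and 24 months, with limma on log2(normalized read count + 1) over 14634 genes, and a gene was called changed at a Benjamini-Hochberg adjusted p under 0.1. Any difference among the 4 ages was called for 7 of the 10 clock genes, against 83.8% of all genes tested, and was not called for Nr1d2 (limma, adjusted p = 0.264), Clock (0.198) and Arntl (0.161). From P18 to P75, 3 clock genes rose and 1 fell, against 25.9% of all genes up and 22.9% down. In the step to 6 months 3 rose and 3 fell, against 31.2% up and 29.4% down. In the step to 24 months 1 rose and 1 fell, against 16.6% up and 12.7% down. From P75 to 24 months 3 rose and 3 fell, against 28.8% up and 26.1% down. With all libraries scaled to the same total, that last split was 1 up and 3 down, where 51.2% of all genes were called. Up and down together, 4, 6, 2 and 6 of the 10 clock genes were called, against 48.8%, 60.6%, 29.3% and 54.9% of all genes. Their median absolute log2 change was 0.17, 0.27, 0.20 and 0.26 in the 4 comparisons, and that of all genes tested was 0.28, 0.35, 0.20 and 0.31. In these bulk samples of a membrane fraction, fewer cells of a type and less RNA per cell cannot be told apart. The paper proposes that mRNAs enter myelin selectively, and a change in that entry was not tested.

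**Figure D1:**
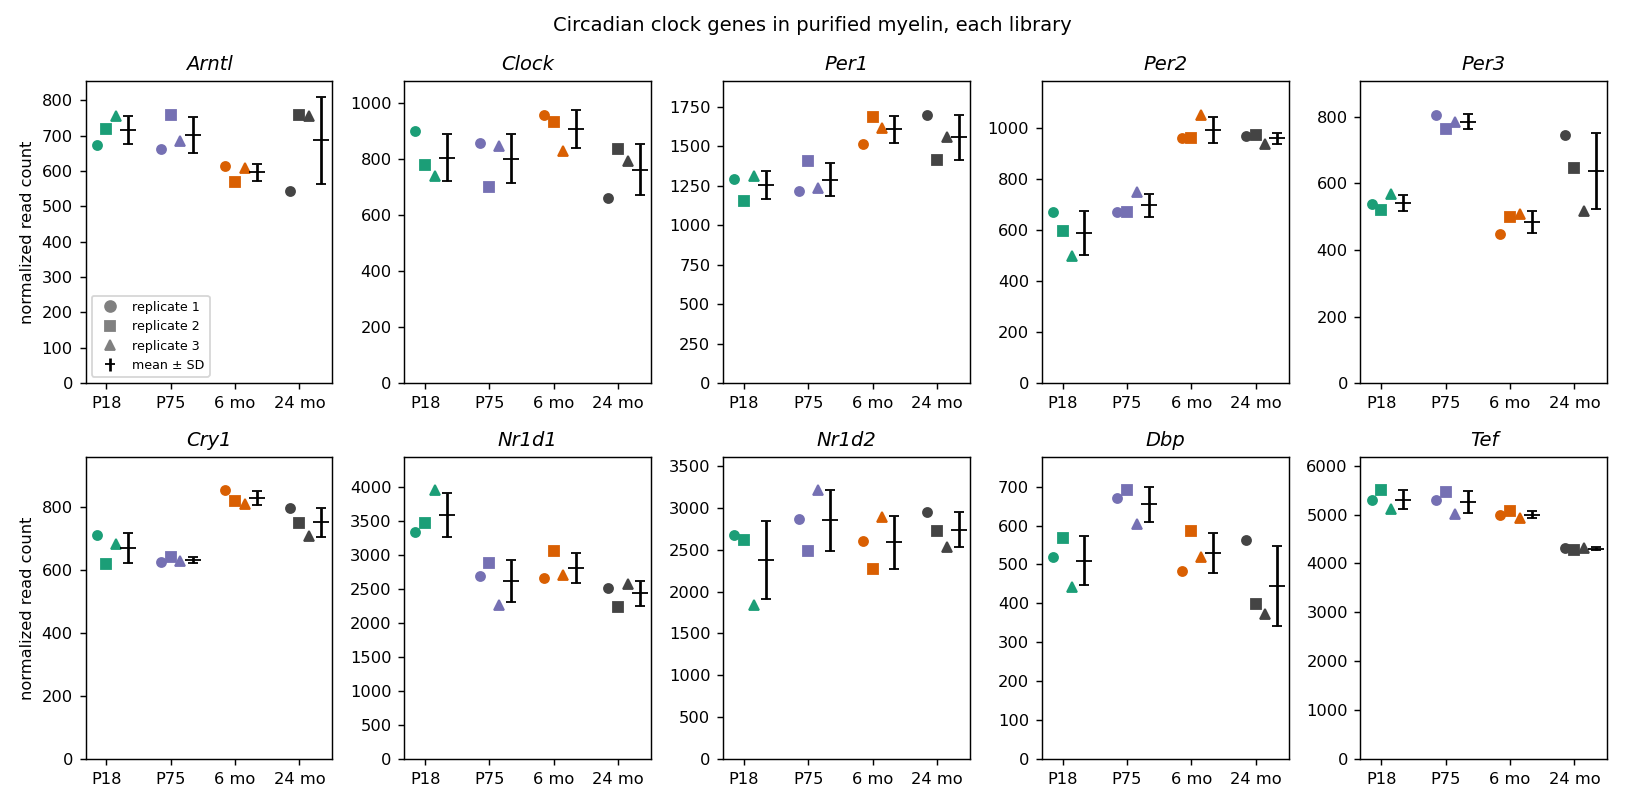
Normalized read count (vertical axis, from 0) of each of the 10 clock genes by age (horizontal axis). Circles, squares and triangles are replicates 1, 2 and 3, and the bar is the mean ± SD of the 3 libraries. Per2 and Cry1 stand higher at 6 months than at P75, Per3 lower, and replicate 1 at 24 months is apart from its companions for Arntl and Dbp.

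The positive arm was called changed in 1 comparison. Arntl (chromosome 7, 120350979 to 120457636, plus strand, in NCBIM37) encodes the DNA-binding partner on which the loop depends. It held 674, 719 and 754 normalized counts at P18, 662, 759 and 684 at P75, 613, 569 and 607 at 6 months, and 544, 759 and 756 at 24 months. The 3 libraries at 6 months lay below all of P18 and P75, and replicate 1 at 24 months was the lowest of the 12. Arntl fell by 0.23 on the log2 scale from P75 to 6 months (SE 0.11, limma, adjusted p = 0.0985). This call was lost when any of 7 libraries was left out, replicates 1 and 2 at P18, replicates 2 and 3 at P75, and each library at 6 months, with changes from -0.25 to -0.18 and an adjusted p of 0.102 to 0.28. It was also lost when all libraries were scaled to the same total (adjusted p = 0.162).

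Clock (chromosome 5, 76639992 to 76733817, minus strand) encodes the other partner of the dimer and held 898, 777 and 738 at P18, 857, 700.0 and 845 at P75, 958, 933 and 828 at 6 months, and 661, 834 and 791 at 24 months. Its libraries overlapped between ages next to each other in level, and those of Arntl did so too. The widest change was that from 6 to 24 months, with a log2 change of -0.25 (SE 0.11, limma, adjusted p = 0.117). It was -0.155 without replicate 1 at 24 months (adjusted p = 0.402). It passed the threshold without replicate 3 at P18 (adjusted p = 0.0796) or without replicate 3 at 6 months (log2 change -0.32, adjusted p = 0.0898). In the order of mean levels, Arntl ran from 6 months over 24 months and P75 to P18 and Clock from 24 months over P75 and P18 to 6 months, with 1.20 and 1.19 times between the ends.

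The Per genes, whose proteins inhibit the positive arm, moved in different directions. Per3 (chromosome 4, 150377761 to 150418774, minus strand) held 539, 520 and 568 at P18, 807, 763 and 786 at P75, 448, 498 and 507 at 6 months, and 746, 645 and 518 at 24 months. All P75 libraries were above the other 9, and the libraries at 6 months were below all others. Per3 rose from P18 to P75 (log2 change 0.53, SE 0.11, limma, adjusted p = 0.00122) and fell by 0.70 on the log2 scale from P75 to 6 months (SE 0.11, limma, adjusted p = 8.06e-05). It then rose by 0.38 to 24 months (SE 0.11, limma, adjusted p = 0.0266) and stayed 0.32 below P75 there (limma, adjusted p = 0.0279). The rise to 24 months was 0.26 without replicate 1 of that age (adjusted p = 0.129) and 0.33 without replicate 1 at 6 months (adjusted p = 0.11). The difference between P75 and 24 months was -0.18 without replicate 3 at 24 months (adjusted p = 0.176). Comparisons that meet at an age share its libraries, so opposite signs on both sides of P75 or 6 months are not independent.

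Per2 (chromosome 1, 93312561 to 93355907, minus strand) held 671, 595 and 498 at P18, 671, 669 and 748 at P75, 960, 961 and 1051 at 6 months, and 968, 972 and 935 at 24 months. The 6 libraries of the later ages were all above the 6 of the earlier ages. Per2 rose by 0.51 from P75 to 6 months (SE 0.10, limma, adjusted p = 0.000513), differed little from 6 to 24 months (log2 change -0.05, SE 0.10, adjusted p = 0.781), and stood 0.46 above P75 at 24 months (adjusted p = 0.00147). From P18 to P75 it rose by 0.25 (SE 0.10, limma, adjusted p = 0.0551), although the libraries of P18 and P75 overlapped. That early rise was 0.14 without replicate 3 at P18 (adjusted p = 0.238) and 0.20 without replicate 3 at P75 (adjusted p = 0.181), and it was not called in a fit of only these ages (adjusted p = 0.13).

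Per1 (chromosome 11, 68908719 to 68923462, plus strand), a Per gene that also responds quickly to signals such as glucocorticoids and cAMP, held 1293, 1152.5 and 1313 at P18 and 1219, 1406 and 1235 at P75. It then held 1515, 1686 and 1617 at 6 months and 1699, 1413 and 1557 at 24 months. The later ages again lay above the earlier ones in all libraries. From P75 to 6 months Per1 rose by 0.32 (SE 0.09, limma, adjusted p = 0.00754) and it stood 0.27 above P75 at 24 months (adjusted p = 0.0224). The latter was 0.21 without replicate 1 at 24 months (adjusted p = 0.102) and 0.22 with libraries scaled to the same total (adjusted p = 0.131).

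Cry1 (chromosome 10, 84594447 to 84647799, minus strand), the strongest inhibitor of the dimer in many tissues, held 712, 619 and 683 at P18, 625, 643 and 629 at P75, 855, 822 and 812 at 6 months, and 799, 750 and 708 at 24 months. The 3 libraries at 6 months were above the other 9. Cry1 rose by 0.39 from P75 to 6 months (SE 0.08, limma, adjusted p = 0.000906) and was 0.25 above P75 at 24 months (adjusted p = 0.0212, or 0.169 with libraries scaled to the same total). Thus 3 of the 4 inhibitors of the dimer rose from P75 to 6 months and the other, Per3, fell. In that step 31.2% of all genes rose and 29.4% fell. The inhibitors moved likewise from P75 to 24 months (28.8% and 26.1% of all genes), in a comparison that shares the P75 libraries.

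**Figure D2:**
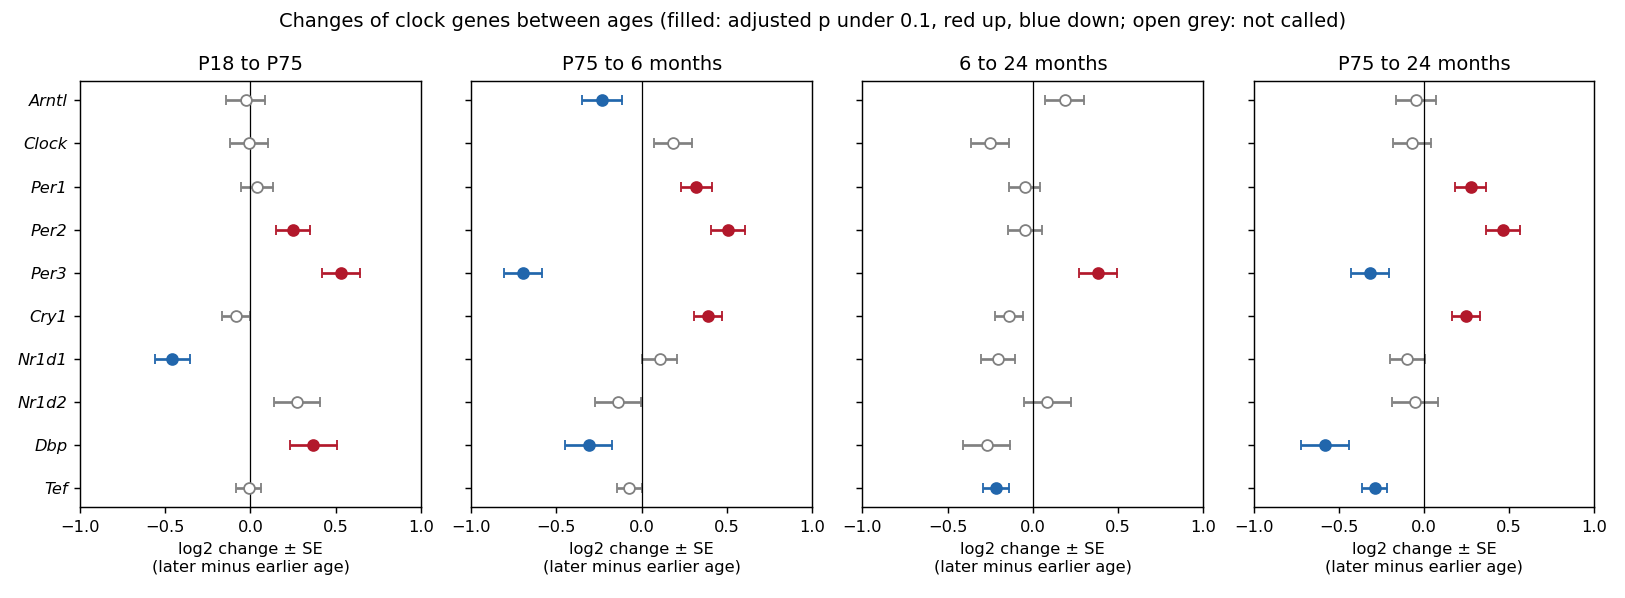
Log2 change of the normalized read count, later minus earlier age, with its standard error (horizontal axis), for each clock gene (vertical axis) in the 4 comparisons. Filled points passed an adjusted p of 0.1 in limma. Per3 lies at 0.53, -0.70 and 0.38 in the 3 consecutive comparisons, while Per2 lies at 0.25, 0.51 and -0.05.

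Of the nuclear receptor genes, Nr1d1 (chromosome 11, 98629246 to 98636647, minus strand) was highest in the youngest mice. It held 3332, 3472 and 3945 at P18, 2693, 2874 and 2267 at P75, 2662, 3051 and 2696.5 at 6 months, and 2503, 2224 and 2571 at 24 months. All P18 libraries were above the other 9. Nr1d1 fell by 0.46 on the log2 scale from P18 to P75 (SE 0.10, limma, adjusted p = 0.00199), and its later changes were not called, at 0.11 (adjusted p = 0.395) and -0.20 (adjusted p = 0.167). Its exons overlap those of Thra on the opposite strand over 263 bases, 8.42% of its exon bases, and whether the counting used strand is not stated.

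Nr1d2 (chromosome 14, 19036568 to 19071641, minus strand), its paralog, held 2682, 2619 and 1841 at P18, 2867, 2484 and 3212.5 at P75, 2601, 2271 and 2896 at 6 months, and 2956, 2721 and 2540 at 24 months. Replicate 3 at P18 was the lowest of the 12, and the libraries of all neighbouring ages in level overlapped. No change of Nr1d2 was called, the widest being 0.27 from P18 to P75 (SE 0.14, limma, adjusted p = 0.119). That difference was 0.10 without replicate 3 at P18 (adjusted p = 0.51) and 0.19 without replicate 3 at P75 (adjusted p = 0.362). It passed the threshold without replicate 1 at P18 (0.37, adjusted p = 0.0588), without replicate 2 at P18 (0.35, adjusted p = 0.08), without replicate 2 at P75 (0.37, adjusted p = 0.0639), and with libraries scaled to the same total (0.40, adjusted p = 0.0229). That scaling moved the median of all genes in this comparison from 0.02 to 0.14.

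The PAR bZIP output genes were lowest on average at 24 months. Dbp (chromosome 7, 52960458 to 52965525, plus strand), among the most rhythmic mRNAs in many tissues, held 518, 567 and 442 at P18, 670, 691 and 605 at P75, 483, 585 and 520 at 6 months, and 562, 399 and 372 at 24 months. All P75 libraries were above the other 9, and replicate 1 at 24 months stood within the range of 6 months while its 2 companions were the lowest of the 12. Dbp rose by 0.37 from P18 to P75 (SE 0.14, limma, adjusted p = 0.0423), fell by 0.31 from P75 to 6 months (adjusted p = 0.07), and was 0.58 below P75 at 24 months (adjusted p = 0.00281). The first change missed the threshold without replicate 3 at P18 (0.27, adjusted p = 0.133), replicate 1 at P75 (0.35, adjusted p = 0.1) or replicate 2 at P75 (0.33, adjusted p = 0.12). The second missed it without replicate 1 or 2 at P75, or replicate 1 or 3 at 6 months (adjusted p from 0.137 to 0.215). Of the exon bases of Dbp, 16.7% (491) are shared with Sphk2 on the opposite strand.

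Tef (chromosome 15, 81632851 to 81657291, plus strand) was the steadiest of the members among the libraries of an age. It held 5297, 5496 and 5105 at P18, 5303, 5468 and 5012 at P75, 4992, 5076 and 4933 at 6 months, and 4308, 4271 and 4322 at 24 months. The 24-month libraries were below the other 9. Tef fell by 0.22 on the log2 scale from 6 to 24 months (SE 0.08, limma, adjusted p = 0.052) and by 0.29 from P75 to 24 months (adjusted p = 0.00498). The former was from -0.22 to -0.21 without replicate 1 or 2 at either age (adjusted p from 0.11 to 0.144). Its lowest spread within ages, an SD of 0.043 on the log2 scale, was at percentile 0.389 of the 11305 genes with a mean over 100, where Dbp, with an SD of 0.20, was at percentile 84.2. Cry1 was also steady (0.071, percentile 6.05), Nr1d2 was as wide as Dbp (0.21, percentile 85.3), and the median of the members, 0.14, was close to the 0.13 of all these genes.

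Libraries of consecutive ages did not overlap for 3 clock genes between P18 and P75 (47.7% of all genes tested), 6 between P75 and 6 months (63.1%) and 4 between 6 and 24 months (43.5%). Between P75 and 24 months 6 did not overlap (57.5%). The last of the consecutive comparisons rested most on single libraries. Both of its calls, Per3 up and Tef down, were lost without replicate 1 at 6 months and without replicate 1 at 24 months, and Tef also without replicate 2 of either age.

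The arms were then set against each other within each library, as a description with no test. A set of 7 genes was taken as driven through E-boxes: Per1, Per2, Per3, Dbp, Nr1d1, Nr1d2 and Tef. Cry1 was not in it. In the promoter windows searched, CACGTG was found for Per1 and Tef of this set and the variant CACGTT for Nr1d1. Per3, Dbp and Nr1d2 had neither, and Per2 had no window. The mean log2 level of the set exceeded that of Arntl by 1.07, 0.95 and 0.78 at P18 and by 1.19, 1.01 and 1.12 at P75. The difference was 1.20, 1.39 and 1.31 at 6 months and 1.51, 0.85 and 0.83 at 24 months. The means ± SD were 0.93 ± 0.15, 1.11 ± 0.09, 1.30 ± 0.10 and 1.07 ± 0.39 (n = 3). The 6-month libraries lay above those of P18 and P75 (lowest 1.196 against a highest of 1.190), and the 24-month libraries held both the highest and, after P18 replicate 3, the next lowest values. Against the mean of Arntl and Clock, the difference was 0.85, 1.01, 0.997 and 0.99 from the youngest to the oldest age, so the 6-month rise was seen against Arntl and not against both genes of the positive arm.

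The ratio of Dbp to Arntl was 0.769, 0.789 and 0.586 at P18, 1.01, 0.910 and 0.884 at P75, 0.788, 1.03 and 0.856 at 6 months, and 1.03, 0.526 and 0.492 at 24 months. P75 lay above P18 in all libraries. At 24 months replicates 2 and 3 were the lowest of the 12. Replicate 1 of that age was the highest (1.033), but only just above replicate 2 at 6 months (1.028). A change in the hour of collection and a change with age cannot be told apart where a whole age moved, because the hour is not known. The highest library was 1.35, 1.15, 1.3 and 2.1 times the lowest within the ages, from the youngest to the oldest, and the mean of P75 was 1.37 times that of 24 months. Without replicate 1 at 24 months, the latter libraries differed by 1.07 times and the mean of P75 was 1.84 times theirs.

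**Figure D3:**
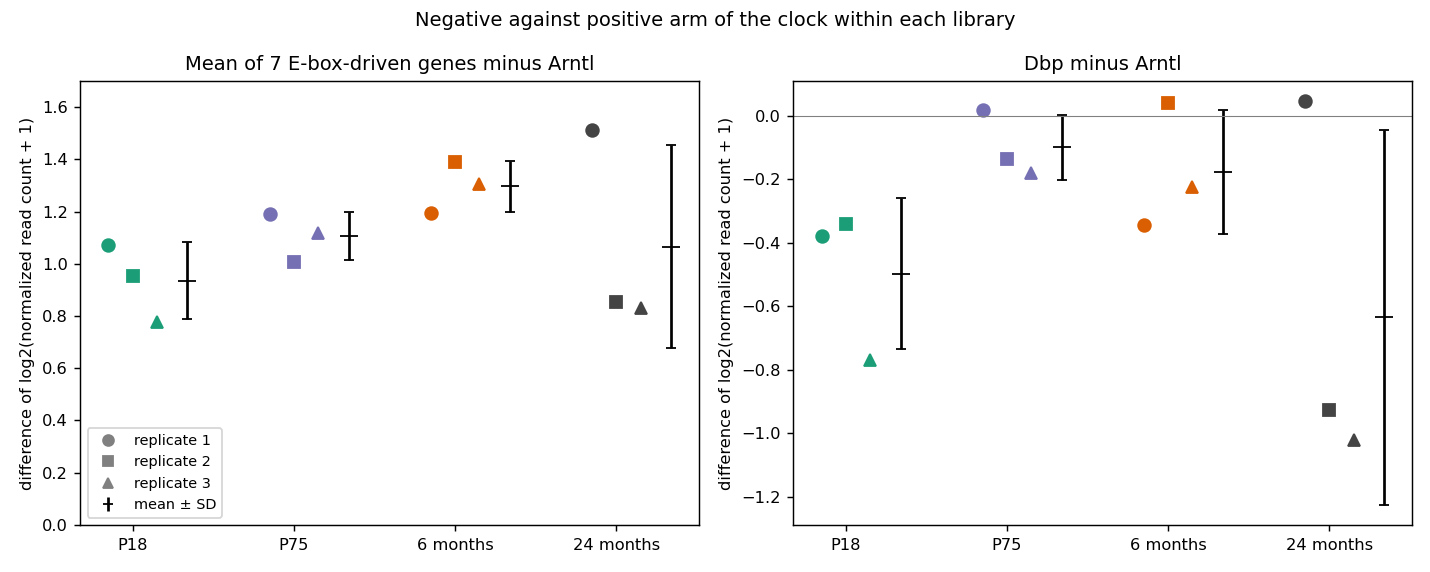
Difference of log2(normalized read count + 1) within each library, by age: the mean of 7 genes taken as E-box-driven minus Arntl (left) and Dbp minus Arntl (right). Symbols are replicates and bars are means ± SD. At 24 months replicate 1 is at 1.51 and 0.05, and replicates 2 and 3 are at 0.85 and 0.83 on the left and at -0.93 and -1.02 on the right.

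Replicate 1 at 24 months stood apart from its companions in both arms at once. Dbp was 1.46 times the mean of the other libraries of that age, Per3 1.28 times, Per1 1.14 times, Nr1d2 1.12 times and Cry1 1.10 times. Arntl was 0.718 and Clock 0.813 times that mean. Tef (1.003), Per2 (1.02) and Nr1d1 (1.04) lay between the other libraries. The median absolute gap of the 10 genes in this library was 0.18 on the log2 scale, against 0.11 for all genes with a mean over 100, and was the highest of the 12 libraries. A gap wider than that of all genes was not particular to it. In replicates 2 and 3 of that age, whose companions include replicate 1, it was 0.122 against 0.0697 and 0.127 against 0.108. In replicate 2 at P75 it was 0.145 against 0.111.

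Of the 20 further clock genes, 6 were above both companions in that library, 9 were below and 5 lay between. Gm129, listed under this older name and now Ciart, a repressor of the dimer with strong rhythms, held 519 in replicate 1 and 258 and 267 in replicates 2 and 3, or 1.98 times their mean. Usp2, a rhythmic ubiquitin protease, was 1.27 times higher. The E4BP4 gene Nfil3, which opposes the PAR bZIP factors at D-boxes, was at 0.716 times, and Npas2, a paralog of Clock, at 0.906 times. Hlf, an output gene like Dbp, lay between (0.989), and Sfpq, a partner of PER proteins, was at 0.644 times. Beside this, the summed level of 15 genes that respond to glucocorticoids was 31804 in replicate 1 against 23591 and 20024, that of 16 immediate early genes was 9937 against 12394 and 16956, and that of 8 cold- and heat-responsive genes was 90353 against 99975 and 121874. Their part in the gap of this library was not tested.

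Without that library, the genes called from 6 to 24 months were Dbp and Arntl. Their gaps were the widest of the members in the library left out. These calls therefore rest on the values by which it was set apart and are no independent test. Dbp fell by 0.45 on the log2 scale (limma, adjusted p = 0.0309) and Arntl rose by 0.35 (adjusted p = 0.0348), where with all libraries the values were -0.27 (adjusted p = 0.174) and 0.19 (adjusted p = 0.264). Per3 (0.26, adjusted p = 0.129) and Tef (-0.22, adjusted p = 0.115) were not called, so that 0 of the 2 earlier calls remained. Among all genes, 19.3% were called in that fit. The count of clock genes that differed among the 4 ages became 8 with Arntl added, against 82.1% of all genes. The difference of the E-box genes from Arntl at 24 months was 0.84 in the remaining libraries, against 1.07 with all 3, and that of Arntl between P75 and 24 months turned from -0.05 to 0.11.

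**Figure D4:**
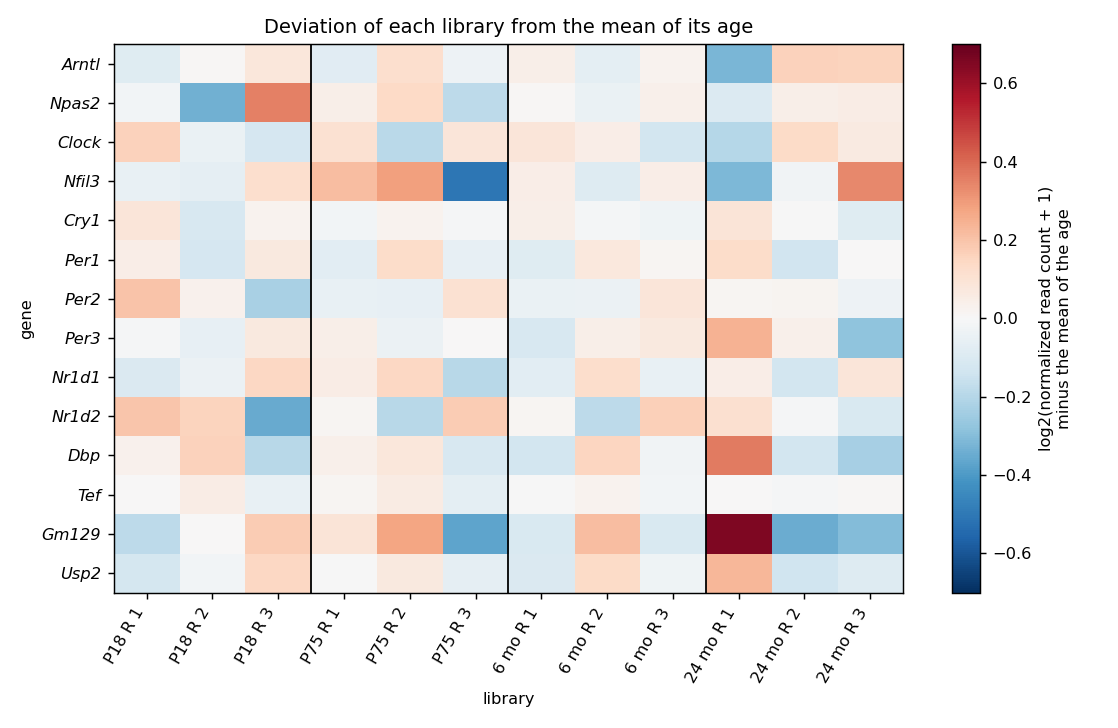
Deviation of each library (horizontal axis, 3 per age, R 1 to R 3) from the mean of its age, in log2(normalized read count + 1), for 14 clock genes (vertical axis). Red is higher and blue is lower. At 24 months R 1, Arntl is at -0.32 and Clock at -0.20 while Dbp is at 0.36 and Gm129 at 0.65.

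Replicate 3 at P18 differed from its companions over all genes, and the members did so no more than others, with a median absolute gap of 0.15 against 0.19. Against the other P18 libraries, Nr1d2 was lower by 0.53 on the log2 scale, Per2 by 0.34 and Dbp by 0.29, while Nr1d1 was higher by 0.21 and Arntl by 0.12. In this library 9.77% of all genes with a mean over 100 deviated by more than 0.5, against at most 2.62% in the others, and of the members 1 of 10, Nr1d2, did. Without it 2 clock genes, Per3 and Nr1d1, were called from P18 to P75 where 50.1% of all genes were, against 4 clock genes and 48.8% of all genes with it.

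Of the further clock genes, 20 of the table were tested and 17 differed among the 4 ages, against 83.8% of all genes. In the consecutive steps, 5 rose and 6 fell to P75 (25.9% and 22.9% of all genes), 8 rose and 4 fell to 6 months (31.2% and 29.4%), and 1 rose and 4 fell to 24 months (16.6% and 12.7%). Between P75 and 24 months 6 rose and 5 fell (28.8% and 26.1%). In the positive arm, Npas2 fell by 0.56 on the log2 scale from P75 to 6 months (limma, adjusted p = 0.00233) and held 758 ± 84.5 at P75 and 512 ± 14.9 at 6 months (SD, n = 3). Arntl2 (mean 24.1), a paralog of Arntl, rose by 1.12 from P75 to 24 months (limma, adjusted p = 0.00583). Rora (mean 27.3), an activator through ROR elements, rose by 0.98 from P75 to 6 months (limma, adjusted p = 0.0252). Both rested on at most 50 reads in a library.

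Among the inhibitors, Cry2, the paralog of Cry1, had a mean of 1370 ± 64.8 for P18, 1105 ± 47.0 for P75, 1778 ± 46.4 for 6 months and 1385 ± 65.8 for 24 months (SD, n = 3). It fell by 0.31, rose by 0.69 and fell by 0.36 on the log2 scale (limma, adjusted p = 0.00389, 2.89e-06 and 0.00542), and its libraries did not overlap in any of these comparisons. Bhlhe40 (DEC1), which competes for E-boxes, rose by 0.71 from P75 to 6 months and fell by 0.30 to 24 months (limma, adjusted p = 1.88e-05 and 0.0412). Its paralog Bhlhe41 rose by 0.87 from P75 to 6 months (adjusted p = 0.000887). With Per1, Per2 and Cry1, these inhibitors were thus higher at 6 months than at P75, whereas Per3 and Gm129 (log2 change -0.48, limma, adjusted p = 0.0761) were lower. The libraries of Gm129 overlapped between these ages.

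Nfil3 showed the widest change of the clock genes tested, with a mean of 163 ± 11.8 for P18, 78.0 ± 21.7 for P75, 211 ± 11.5 for 6 months and 165 ± 37.7 for 24 months (SD, n = 3). It fell by 1.09 on the log2 scale and then rose by 1.47 (limma, adjusted p = 0.000306 and 1.29e-05). Usp2 and Dbp, by contrast, were highest at P75. Usp2 rose by 0.38 to P75 and fell by 0.51 to 6 months (limma, adjusted p = 0.00891 and 0.000739). Hlf, the third PAR bZIP gene, stood 0.20 below P75 at 24 months (adjusted p = 0.0386), beside -0.29 for Tef and -0.58 for Dbp.

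Genes whose products modify PER proteins or act with them also moved. Csnk1d and Csnk1e, casein kinases that phosphorylate PER proteins, fell by 0.47 and 0.45 from P18 to P75 (limma, adjusted p = 0.000206 and 0.000192). The RNA-binding proteins Nono and Sfpq, partners of PER, differed in pattern, with Nono up by 0.59 from P75 to 6 months (adjusted p = 1.11e-05) and Sfpq down by 0.56 from P18 to P75 (adjusted p = 0.00419).

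The genes whose pattern over the 12 libraries was nearest to that of Dbp, by the root mean square difference of gene-centred log2 values, were Ttc9 (0.122), Sept4 (0.128), Acaa2 (0.138), D5Ertd579e (0.146) and Nmral1 (0.1503), against a median of 0.370 over 11304 genes. Tef was at place 115 in that order and Per3 at 1562. The nearest to Arntl were 9330159F19Rik (0.0943), Rad1 (0.103), Irf3 (0.103), Nup35 (0.104) and Fam114a2 (0.108), against a median of 0.300, and Clock was at place 3508. None of the 10 genes closest to these 2 members was a clock gene of the lists.

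Other gene groups moved with age beside the clock genes. Of the 15 glucocorticoid-responsive genes, 10 fell and 2 rose from P75 to 6 months, where 29.4% of all genes fell and 31.2% rose, and their summed level lay between 38496 and 53488 in the P75 libraries and between 14147 and 17662 in those of 6 months. The widest change was that of the metallothionein gene Mt2, which fell by 2.41 on the log2 scale (limma, adjusted p = 1.35e-07). Of the 16 immediate early genes, 10 rose and 0 fell in the same step, against the same shares, with sums of 8710 to 11132 and 17389 to 19707, and Nr4a3 rose by 4.56 (limma, adjusted p = 6.32e-06) from a mean of only 2.03. Among the 8 cold- and heat-responsive genes, 3 rose in that step, near the 31.2% of all genes, and 0 were called as falling. Their sums were 89700 to 101734 and 115299 to 126853, and were mostly Hspa8 and Hsp90aa1, which rose. Cirbp (-0.44), Rbm3 (-0.51) and Hspa1b (-0.83) were lower at 6 months, without overlap of libraries. They were not called (limma, adjusted p = 0.126, 0.17 and 0.104). The widest change in any step, 0.95 for Hspa1b from 6 to 24 months, was not called either (limma, adjusted p = 0.118). Per1, Per2 and Cry1 rose in the step in which the immediate early genes rose and the glucocorticoid-responsive genes fell, and the part of those groups in the change was not tested.

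Markers of the cell types that a myelin fraction can hold also moved. Of 11 oligodendrocyte markers 8 fell from P18 to P75, where 22.9% of all genes did, with sums of 357632 to 639305 and 200589 to 262758 and with Cnp down by 1.71 on the log2 scale. In that step 1 of 5 precursor markers rose (25.9% of all genes) and 1 fell, Gpr17 by 2.29. From P75 to 6 months 6 of 10 neuronal markers rose and 3 fell (31.2% and 29.4% of all genes), Syt1 rising by 2.34. Their sum lay between 199963 and 228625 in the P75 libraries and between 182576 and 187110 in those of 6 months. Snap25 was the largest part of this sum, and its mean went from 141430 at P75 to 88328 at 6 months. The sum of 8 microglial markers lay between 4000 and 5150 at P18 and between 10546 and 12381 at 24 months, with C1qa up by 1.36 from P75. That of 6 choroid plexus and ependymal markers lay between 12587 and 14718 and between 42383 and 47032 at the same ages. It was mostly Ttr, with means of 13440 at P18 and 44404 at 24 months. Kl and Folr1 also had higher means at 24 months than at P18, while Foxj1, Ccdc153 and Tmem212 had lower ones. Ccdc153 fell by 1.52 from P75 to 6 months. The sum of 8 astrocyte markers lay between 95563 and 115453 in every library, Gfap falling by 0.87 from P18 to P75, and that of 6 endothelial markers between 489 and 694, Flt1 rising by 1.148 from P75 to 6 months. The markers given with a log2 change passed the limma test at an adjusted p of at most 0.00238. No list held a gene at 0 in a whole age, and the part of these markers in the changes of the clock genes was not tested.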

How the data were processed

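RNA of purified myelin was sequenced (Illumina). Reads were mapped by the authors to mm9 with TopHat (TopHat2 2.0.8 in the submitters' processing notes) and counted per gene with HTSeq 0.5.4p1. The deposited signal, listed for 21937 genes, is the count divided by the DESeq size factor of its library. Whole reads were recovered for 100% of values, within 0.006 of a whole read.

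Ages and replicate numbers came from the labels. The members, lists and tests were chosen with earlier results of these data known. Genes with a mean of at least 10 (14634) were fitted in 1 limma 3.58.1 model (trend, empirical Bayes, R 4.3.3) on log2(normalized read count + 1) over 12 libraries, with Benjamini-Hochberg adjustment over all of them and calls under 0.1. An exact test of 3 against 3 could not go below p = 0.1. The labels do not say that same-numbered libraries share a litter or day. Same-numbered libraries of P75 and 6 months deviated together across genes (correlations of 0.161, 0.101 and 0.187), those of the other comparisons did not (from -0.213 to -0.026), so any pairing there comes from the data alone. The p-values measure the spread between these libraries.

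Named genes were all members, further clock genes called without overlap of libraries in at least 1 comparison, the 5 nearest to Dbp and Arntl, and the widest change of each other list. Gm129 was named after its values were seen. The results of some of these genes are not reported here. Alternatives were pseudocounts of 0.5 and 10, no filter, a mean over 100, only the ages compared, the replicate block, quantile normalization, scaling to the same total, edgeR 4.0.16 and DESeq2 1.42.0 on recovered reads, a threshold of 0.05, and each library left out. The methods were tested on simulated data. Gene positions and exon lengths are from GENCODE on NCBIM37, and promoters from RefSeq on GRCm38.p6.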

Additional observations from a re-analysis of the deposited data

How the results depend on the processing

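Over 23 alternatives, 9 of the 18 calls of clock genes were kept in all of them: Per3 and Nr1d1 from P18 to P75, Per1, Per2, Per3 and Cry1 from P75 to 6 months, and Per2, Dbp and Tef from P75 to 24 months. The count of clock genes called from P18 to P75 was 4, and 2 to 5 when 1 library was left out (42.6% to 50.1% of all genes). From 6 to 24 months the count was 2 (29.3% of all genes). It became 4 with only the ages compared (Nr1d1 and Clock added), where 36.9% of all genes were called. At an adjusted p under 0.05 it was 1, against 19.5% of all genes. It was 0 to 3 when 1 library was left out, with 0 without replicate 1 at 6 months (16.9% of all genes). The other counts stayed within 1.5 times, including those by edgeR and DESeq2. The replicate block gave 4, 6, 2 and 6 clock genes in the 4 comparisons and 7 among all ages, and changed no call. With it, 47.6%, 59.4%, 27.3% and 53.7% of all genes were called in the comparisons, and 82.6% among all ages. The cause of these differences was not tested.

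The difference of the E-box genes from Arntl, taken against Arntl and Clock, was 1.01 at P75 and 0.997 at 6 months. With Per1, Per2, Per3 and Cry1 as the negative arm it was 0.0058, 0.22, 0.58 and 0.43 from the youngest age to the oldest.

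Of 920 log2 changes of single members 19 reversed, none of them called. Scaling to the same total gave 0.1146 for Tef, 0.0967 for Arntl, 0.1167 for Clock and 0.0419 for Cry1 from P18 to P75, and quantile normalization gave 0.0165 for Tef. With 1 library left out, the changes from P18 to P75 ran from -0.0279 to 0.075 for Per1, from -0.039 to 0.0237 for Tef, from -0.0863 to 0.0121 for Arntl and from -0.068 to 0.0852 for Clock. From 6 to 24 months they ran from -0.1132 to 0.0196 for Per1 and from -0.0057 to 0.1697 for Nr1d2. From P75 to 24 months they ran from -0.1506 to 0.0349 for Nr1d2, from -0.1277 to 0.1123 for Arntl and from -0.1657 to 0.027 for Clock.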
